A study of Mus musculus with 743 samples.

Results

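Among Schwann cells (SCs) sorted singly from the newborn mouse sciatic nerve, 98 of the 621 cells kept fell under every limit that was set on a gene marking a class of SCs. These cells, called marker-low here, had under 50 CPM (reads of a gene per 1000000 reads of the cell) of Mki67 and Top2a summed, under 50 CPM of Ncmap, under 200 CPM of Cdkn1c, and under 10 CPM each of Ngfr and L1cam. The cells were chosen by the reads of these 6 genes, so their values are given as a description and were not tested. All mice were 1 day old, carried P0Cre -/+, ReYFP Tg/+ and βAct-DsRed Tg/+ on a C57bl/6J background and had no treatment named. eYFP-positive cells were sorted from enzymatically dissociated nerves, 1 per well, and each of 2 plates held the cells of its own pool of 1 male and 1 female mouse. P0Cre is driven by a promoter active in the SC lineage, so eYFP marked cells of the lineage in which that transgene had been active, whatever their stage. Full-length cDNA was sequenced with the Smart-seq2 protocol, which carries no molecular identifiers, and reads were counted per gene and cell. With pooled mice, the plate was the replicate (n = 2), and an exact permutation test of 2 plates against 2 cannot give a two-sided p under 0.333.

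SCs are the glia of peripheral nerves. Around birth, immature SCs sort axons out of bundles, and those that come to ensheath a single large axon leave the cell cycle and pass through a promyelinating stage before they make myelin, while others keep several small axons and become nonmyelinating Remak SCs. Mki67 and Top2a are read during the cell cycle, Ncmap encodes a myelin-associated membrane protein, Cdkn1c encodes the cell cycle inhibitor p57Kip2, Ngfr encodes the low-affinity neurotrophin receptor, and L1cam encodes an adhesion molecule of immature and nonmyelinating SCs.

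The marker-low cells came from 743 wells, of which 122 had under 1500 detected genes and were set aside. Plate 1 gave 53 and plate 2 gave 45 of the 98 cells. Beside them, 294 further cells were noncycling and under the Ncmap limit: 143 were over the limit of Ngfr or L1cam and under that of Cdkn1c (Ngfr/L1cam cells), 105 were over the limit of Cdkn1c alone (Cdkn1c-high cells) and 46 were over both. The remaining 119 cells were over the Ncmap limit and 110 were cycling. Median depth per marker-low cell was 933398 reads on plate 1 and 1005800 on plate 2, against 951360 and 775721 in the other 294 cells.

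Marker-low cells made up 30.3% of the noncycling, Ncmap-low cells of plate 1 (95% exact binomial interval 23.6 to 37.7%, 53 of 175) and 20.7% of those of plate 2 (15.5 to 26.7%, 45 of 217), a mean of 25.5% ± 6.75 (SD, n = 2 plates). Of all cells kept they were 18.5% and 13.5%. Intervals cover counting error only. Wells at a plate's edge held 15.1% and 15.6% of the marker-low cells and 9.02% and 16.3% of the other 294.

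The name "marker-low" describes a range of read counts. At full depth 35 of the 98 cells, 17 on plate 1 and 18 on plate 2, had no read of any of the 6 genes. Cdkn1c was read in 46 of the 98 cells, Ngfr in 18, L1cam in 11, Ncmap in 3, and Mki67 and Top2a in 1 cell each. In the summed reads of the marker-low cells, Cdkn1c stood at 28.1 CPM on plate 1 and 32.4 CPM on plate 2, against 719.8 and 1031 CPM in the other 294 cells. Ngfr stood at 0.670 and 0.562 CPM against 85.4 and 63.0 CPM, and L1cam at 0.325 and 0.315 CPM against 58.3 and 86.7 CPM.

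Some cells lay close to the limits. Between 100 and 200 CPM of Cdkn1c there were 10 marker-low cells, and 18 of the 105 cells kept out by this gene alone had between 200 and 400 CPM. The nearest marker-low cell had 181 CPM of Cdkn1c and the nearest cell outside 203 CPM. For Ngfr the nearest values were 9.46 CPM inside and 11.7 CPM outside, and for L1cam 8.50 and 10.5 CPM. Few cells were near the limits of Ncmap, with 30.6 CPM inside and 81.0 CPM outside, or of Mki67 and Top2a summed, with 16.2 and 78.3 CPM.

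**Figure D1:**
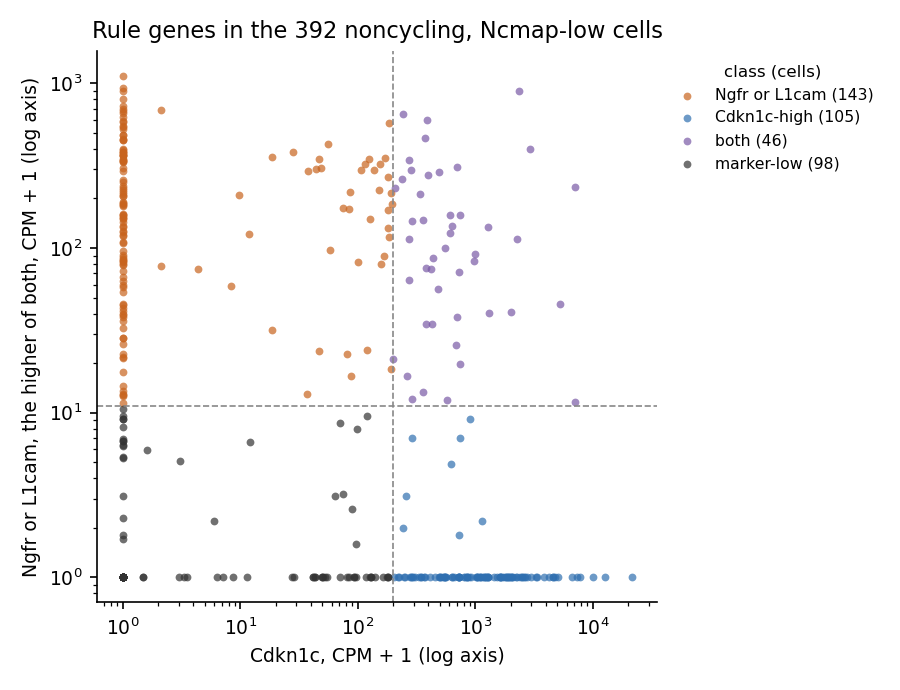
Each point is 1 of the 392 noncycling, Ncmap-low cells, with Cdkn1c on the x axis and the higher of Ngfr and L1cam on the y axis, both as CPM + 1 on log axes; dashed lines are the limits of 200 and 10 CPM. The 98 marker-low cells fill the lower left corner, many at 0 CPM of each gene and others spread up to the limits.

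Choosing the cells again after every cell had been thinned to 50000 reads gave 103 cells, of which 91 were among the 98. The shared cells were 92.9% of the original choice and 88.3% of the repeated choice. Of the 12 cells gained, 8 had been Ngfr/L1cam cells, 2 Cdkn1c-high cells and 2 cycling cells, and of those lost, 5 became Ngfr/L1cam cells and 2 Cdkn1c-high cells. At this equal depth the share of the noncycling, Ncmap-low cells was 32.2% on plate 1 and 21.8% on plate 2. All 98 marker-low cells had 50000 reads or more.

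The marker-low cells carried the genes that define the Schwann lineage. Sox10, the transcription factor that specifies SCs, or Erbb3, the neuregulin receptor on which SCs depend, was read in 50 of 53 cells on plate 1 (94.3%, exact interval 84.3 to 98.8%) and in 42 of 45 on plate 2 (93.3%, 81.7 to 98.6%). The shares in the other 294 cells were 95.1% and 94.2%. The intervals cover counting error within a plate only and do not compare the classes. At 50000 reads per cell the shares were 86.8% and 93.3% against 87.7% and 91.8%. Both genes were read in 58 of the 98 cells and neither in 6. All 6 had reads of Pmp22 and Cnp, genes of myelin and SC membranes, while 3 had reads of Cdh19 and 1 of S100b, further SC genes. The number of genes detected in these 6 cells ran from 1544 to 3553 with a median of 2207.5.

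None of the 10 genes listed as lineage markers passed the test in any of the 3 comparisons described further on. Summed over the cells of a plate, Sox10 stood at 184 and 207 CPM in marker-low cells on plates 1 and 2, 213 and 230.4 CPM in Ngfr/L1cam cells and 193 and 158 CPM in Cdkn1c-high cells. Erbb3 stood at 507 and 248 CPM, 333 and 226 CPM and 268 and 274 CPM in the same order. In Sox10 both marker-low plates lay under the Ngfr/L1cam plates and overlapped the Cdkn1c-high plates, and in Erbb3 the marker-low plates differed more from each other than those of the other classes did. Cdh19, which encodes a cadherin of SC precursors, stood at 42.7 and 239 CPM in marker-low cells and at 257 and 197 CPM in Ngfr/L1cam cells and 118 and 63.8 CPM in Cdkn1c-high cells. Cnp, which encodes a phosphodiesterase of myelinating glia, stood at 1348 and 1372 CPM against 1531 and 1537 CPM in Ngfr/L1cam cells and 1226 and 1232 CPM in Cdkn1c-high cells. S100b, which encodes a calcium-binding protein used to recognise SCs, stood at 71.8 and 103 CPM, against 251 and 288 CPM in the cells over the Ncmap limit. By edgeR 0 of the 10 had an unadjusted p under 0.05, with median log2 differences of 0.03 against the other 294 cells, -0.14 against Ngfr/L1cam cells and 0.19 against Cdkn1c-high cells.

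**Figure D2:**
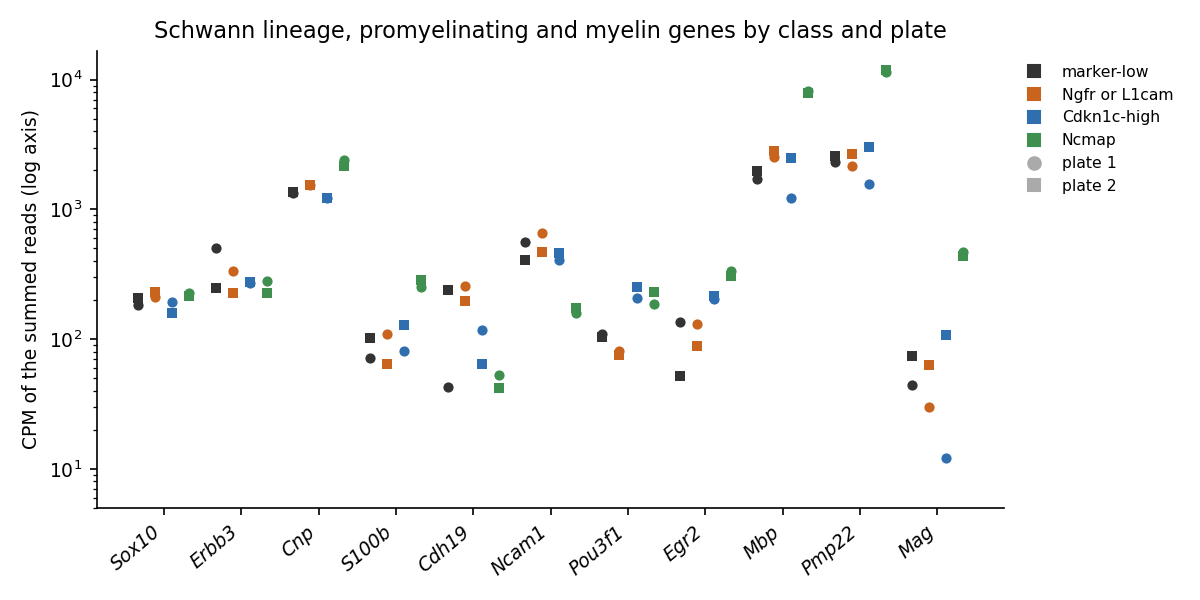
CPM of the summed reads (log y axis) of 11 genes in marker-low, Ngfr/L1cam, Cdkn1c-high and Ncmap cells, with a circle for plate 1 and a square for plate 2. Sox10 stands at 184 and 207 CPM in marker-low cells, while Mbp, Pmp22 and Mag are highest in the Ncmap cells on both plates.

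Several defining markers of other cells of the nerve had no read. Ptprc, Tyrobp, C1qa and C1qb of the 6 immune markers, Cdh5, Kdr and Emcn of the 5 endothelial markers, and Acta2, Rgs5 and Myh11 of the 5 mural markers had no read in any marker-low cell. The other mural markers, Pdgfrb and Cspg4, were each read in 3 cells of either plate and reached 924 and 548 CPM in single cells. Itgb4, listed as a perineurial marker and also among the neuregulin and laminin receptor genes described further on, was read in 18 and 14 cells. The summed levels of these lists were 2.43 and 6.65 CPM for immune, 0.0766 and 0 CPM for endothelial and 34.99 and 54.5 CPM for mural markers, against 20.9 and 25.6 CPM, 4.29 and 1.42 CPM and 39.7 and 52.98 CPM in the other 294 cells. Perineurial markers summed to 37.4 and 52.3 CPM against 75.8 and 80.01 CPM, melanocyte markers to 1.91 and 0 CPM against 29.5 and 8.86 CPM and neuron markers to 10.2 and 25.6 CPM against 21.9 and 19.1 CPM. Muscle markers summed to 0.306 and 0.0225 CPM and red blood cell markers to 0.287 and 0 CPM. Of the 6 fibroblast-like markers, Pdgfra and Lum had no read and Dcn was read in 3 of the 98 cells. The collagen genes Col1a1, Col1a2 and Col3a1 were read in every marker-low cell and brought the list to 9837 and 9582 CPM, against 9798 and 9005 CPM in the other 294 cells and 5082 and 5559 CPM in the Ncmap cells. No tested gene of these 9 lists passed the threshold of edgeR in any comparison, and at an unadjusted p under 0.05 there were at most 3 in a list. The low-count filter kept many of these genes out of the test. Muscle and red blood cell markers had 0 genes tested, endothelial markers 1 of 5, immune markers 2 of 6 and mural markers 2 of 5. For genes left out, the lack of a call carries no information.

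Fewer genes were detected per marker-low cell. The median was 2636 genes on plate 1 and 2624 on plate 2, against 2866 and 2848 in the other 294 cells, a difference of -227 ± 4.24 genes (SD, n = 2 plates). At 50000 reads per cell the medians were 2157 and 2224 against 2417 and 2427.5, a difference of -231.75 ± 39.95 genes. Both plates of marker-low cells lay under both plates of the other cells at either depth, and with 2 plates the exact permutation p could not fall under 0.333. The cells themselves overlapped broadly, with interquartile ranges of 1869 to 2491 and 1840 to 2607 genes in marker-low cells and of 2021 to 2758 and 2112 to 2735 in the others. Against Ngfr/L1cam cells the difference at equal depth was -210.5 ± 64.3 genes and against Cdkn1c-high cells -188.75 ± 99.3 genes. Raising the minimum for keeping a cell from 1500 to 2500 genes left a difference of -86.2 genes, and lowering it to 1000 genes gave -343 genes.

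**Figure D3:**
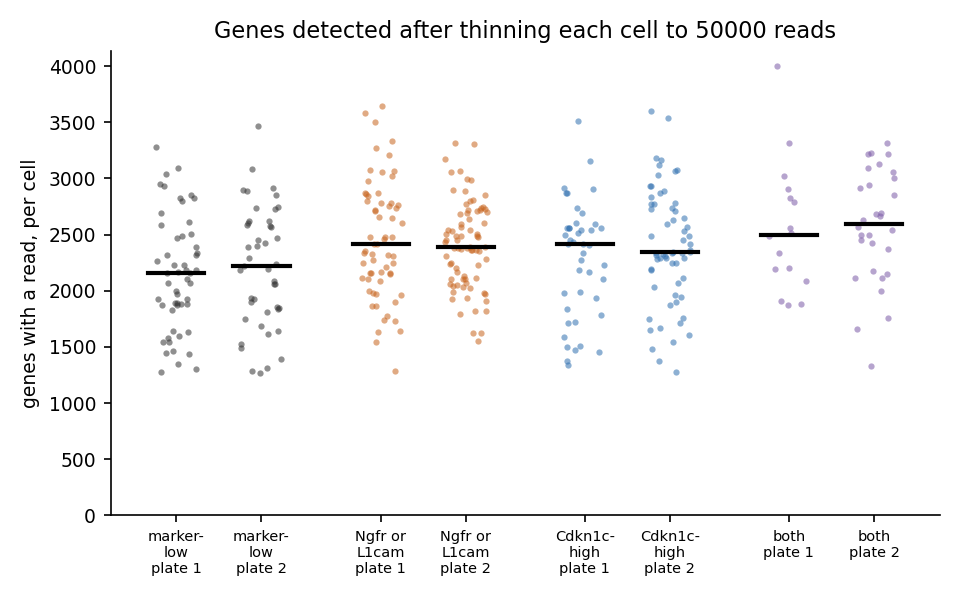
Number of genes with a read in each cell (y axis, from 0) after thinning to 50000 reads, by class and plate, with 1 point per cell and a bar at the median. The medians of the marker-low cells, 2157 and 2224, are the lowest of the 8, and the points of all classes overlap.

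The share of marker-low cells was highest among cells with few genes. Among noncycling, Ncmap-low cells split into 3 groups of increasing gene number at 50000 reads, marker-low cells were 41.7, 28.1 and 20.7% on plate 1 and 30.1, 15.7 and 16.7% on plate 2. Split by total reads, the shares were 25.4, 34.5 and 31.0% and 15.1, 16.7 and 30.6%. The part of gene number per cell in the choice of these cells was not tested beyond the equal-depth values and the cells of middle gene number given with each comparison. Mitochondrial genes took 4.10% and 4.35% of the summed reads of marker-low cells, 3.63% and 3.49% in Ngfr/L1cam cells and 3.96% and 4.37% in Cdkn1c-high cells.

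To ask which further genes set the marker-low cells apart, the summed reads of each class on each plate entered the quasi-likelihood test of edgeR over all genes, with Benjamini-Hochberg adjustment and an adjusted p under 0.05 as threshold. Against the other 294 cells, 7 of 13399 genes were lower (0.0522% of genes tested) and 0 were higher (0.0%). All 7 were at 0 reads in the marker-low sums and passed the filter on low counts through other classes, and from the sums of the compared classes alone edgeR called 0 genes, with an adjusted p of 0.727 for each of the 7. The count is thus given as a description. Cenpe, Cdca3, Kif23 and Nuf2, which encode proteins of mitosis and cytokinesis, were among the 7, with Elovl7, a fatty acid elongase, Pex6, a peroxisomal ATPase, and Ceacam1, an adhesion molecule. Before adjustment 739 genes (5.52%) had a p under 0.05, 186 higher and 553 lower. DESeq2 called 389 genes on the same sums and limma on mean log2 values called 0. With plate as a block in the model edgeR called 2 genes. Leaving out the marker-low sum of plate 1 gave 37 genes, that of plate 2 gave 31, and leaving out the comparison sum of plate 1 or plate 2 gave 17 or 16.

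These 7 genes had no read in any marker-low cell and were rare in the others. Their adjusted p in the main fit is not given, since it rests on a count of 0 and a spread shared with other classes. The genes were named after their values were seen, since none was read in enough cells for the limits on detection used for named genes. Cenpe (mouse GRCm38, chromosome 3, 135212537 to 135273611), a kinesin that moves chromosomes, stood at 10.5 and 19.8 CPM in the other 294 cells with reads in 11 of them. Cdca3 (chromosome 6, 124829547 to 124833701), a trigger of mitotic entry, stood at 21.2 and 8.97 CPM in 11 cells. Kif23 (chromosome 9, 61915905 to 61946774), a kinesin of the central spindle, stood at 6.45 and 3.72 CPM in 7 cells. For each of these genes both plates of the other cells lay above both plates of the marker-low cells, which were at 0 reads. Nuf2 (chromosome 1, 169497934 to 169531464), a kinetochore subunit, stood at 4.598 and 3.65 CPM in 3 cells. Absence was not particular to marker-low cells. In the 119 Ncmap cells, Cenpe, Cdca3 and Nuf2 had no read on either plate, and Kif23 was read in 2 and 1 cells. In the cells over both limits, Kif23 and Nuf2 had no read on either plate, Cenpe none on plate 1 and Cdca3 none on plate 2. Nuf2 also had no read in the Ngfr/L1cam cells of plate 1 or the Cdkn1c-high cells of plate 2.

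Elovl7 (chromosome 13, 108214404 to 108285683) stood at 14.6 and 17.8 CPM in 24 of the other 294 cells. Pex6 (chromosome 17, 46711463 to 46725541) stood at 34.6 and 24.6 CPM in 25 cells. Ceacam1 (chromosome 7, 25461707 to 25477603) stood at 12.4 and 40.1 CPM in 24 cells, with no read in the Ngfr/L1cam cells of plate 2. Elovl7, Pex6 and Ceacam1 each overlap another annotated gene, and since strand use in counting is not known, reads of the pair may not be told apart.

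A few cells carried most of these reads. The 3 cells with the most reads held 71.5% of the Cenpe reads of the other 294 cells, 67.6% for Cdca3, and 93.2% for Kif23, while Nuf2 was read in just 3 cells. For Elovl7, Pex6 and Ceacam1 the 3 cells held 52.2, 47.3 and 43.3%. By the approximate 95% bound of 3 in 98, a count of 0 in 98 cells allows a share of up to 3.06% of cells with a read. This bound takes the cells of both plates as independent, covers counting error only and does not compare the classes. In the other 294 cells the shares of Nuf2, 0.82 and 1.16%, and of Kif23, 1.64 and 2.91%, lay under that value. A fold change against 0 reads depends on the prior count, so none is given. Of the 20 alternative settings, between 7 (Ceacam1) and 15 (Cdca3) called a given gene, and after thinning to 50000 reads edgeR called 0 genes. With a minimum of 1000 genes per cell the Cenpe difference changed sign, and that of Cdca3 did so after thinning with the cells chosen again.

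The mitotic genes were read mostly in cycling cells, and Elovl7 and Ceacam1 in Ncmap cells. Cenpe was read in 75.5% and 71.9% of cycling cells and Cdca3 in 73.6% and 75.4%. Kif23 was read in 58.5% and 42.1% and Nuf2 in 67.9% and 54.4% of them. Elovl7 was read in 54.2% and 36.7% of the Ncmap cells, and Ceacam1 in 50.8% and 30.0%. Pex6 was read in 10.2% and 13.3% of Ncmap cells and 15.1% and 5.26% of cycling cells, with 9.02% and 8.14% in the other 294. Reads of at least 3 of 10 listed proliferation genes were found in 2 marker-low cells and 14 of the others, and these 14 cells held 51.1% of the reads of the 4 mitotic genes in their class. Without such cells, an alternative added after seeing the data, edgeR called 2 genes.

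**Figure D4:**
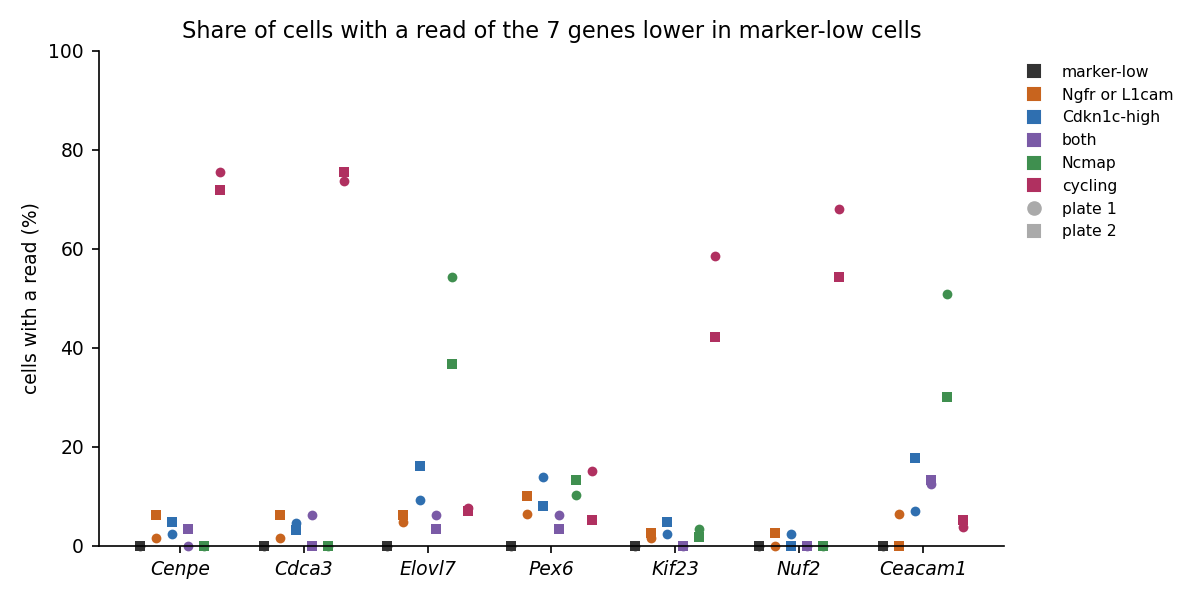
Share of cells with a read (y axis, percent) by class, with a circle for plate 1 and a square for plate 2. The 7 genes are those that passed the threshold against the other 294 cells with a count of 0 in marker-low cells, given as a description. Marker-low cells are at 0% throughout, the 4 mitotic genes reach 42.1 to 75.5% of cycling cells, and Elovl7 and Ceacam1 reach 30.0 to 54.2% of Ncmap cells.

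Against Ngfr/L1cam cells edgeR called 0 of 13569 genes (0.0% in either direction), with 583 at an unadjusted p under 0.05 (4.30%), 417 calls by DESeq2 and 2 by limma. Against Cdkn1c-high cells it also called 0 of 13569 genes (0.0%), with 741 at an unadjusted p under 0.05 (5.46%), 596 calls by DESeq2 and 2 by limma. Among cells of middle gene number, between the quartiles over both compared classes of a plate at 50000 reads, edgeR called 4 genes against the other 294 cells, 1 against Ngfr/L1cam cells and 4 against Cdkn1c-high cells. The 3 comparisons share the sums of the marker-low cells, so they are not independent of each other. The median log2 difference over all genes was -0.04 against the other 294 cells, -0.01 against Ngfr/L1cam cells and 0.00 against Cdkn1c-high cells. No gene of the lists described in the following paragraphs passed the threshold, so their values are descriptions. Over the alternative settings at most 5 genes of a list were called, in the proliferation list without a filter on low counts. A gene is counted as under or over another class where its level was so on each plate, and over all genes tested 33.6, 28.0 and 23.8% were under and 16.8, 19.8 and 21.6% over in the 3 comparisons.

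Immature SC genes differed in how widely they were read in marker-low cells. Ncam1, Id2 and Jun had medians over 0 CPM on both plates. The medians of Sox2, Gap43, Cdh2, Chl1, Nes and Notch1 were 0 CPM on both plates, and Tfap2a had no read. Ncam1, an adhesion molecule of immature SCs, was read in 97 of the 98 cells and stood at 564 and 407 CPM, with 652 and 473 CPM in Ngfr/L1cam cells, 411 and 461 CPM in Cdkn1c-high cells and 158 and 173 CPM in Ncmap cells. Jun, a transcription factor that opposes myelination, stood at 381 and 486 CPM against 511 and 662 CPM in Ngfr/L1cam cells and 236 and 314 CPM in Cdkn1c-high cells. Both plates of marker-low cells were under both Ngfr/L1cam plates and over both Cdkn1c-high plates for Jun, and neither difference passed (unadjusted p = 0.174 and 0.0184 by edgeR). Sox2, which keeps SCs immature, stood at 20.04 and 29.97 CPM and was read in 26 cells. Of the 10 immature genes, 7 were under the Ngfr/L1cam level on each plate and 2 over (median log2 difference -0.39), and against Cdkn1c-high cells 1 was under and 3 over (0.22). At an unadjusted p under 0.05 there were 0 and 1.

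Pou3f1 and Egr2, the best known promyelinating transcription factors, were nearer in level to the Ngfr/L1cam cells than to the Cdkn1c-high cells. Pou3f1 (Oct6), which drives SCs into the promyelinating stage, stood at 109 and 103 CPM in marker-low cells and was read in 72 of the 98 cells. Its level was 80.3 and 75.9 CPM in Ngfr/L1cam cells, 206 and 254 CPM in Cdkn1c-high cells and 188 and 231 CPM in Ncmap cells. The marker-low plates thus lay over the Ngfr/L1cam plates and under the Cdkn1c-high plates without overlap, with log2 differences of 0.51 (SE 0.38) and -1.08 (SE 0.38) (unadjusted p = 0.204 and 0.0147 by edgeR). Egr2 (Krox20), the factor that starts myelin transcription, stood at 135 and 51.9 CPM against 130.4 and 87.7 CPM in Ngfr/L1cam cells and 204 and 216 CPM in Cdkn1c-high cells. Its corepressor genes Nab2 and Nab1 stood at 8.595 and 13.5 CPM and at 0 reads. In Cdkn1c-high cells Nab2 stood at 70.6 and 35.4 CPM and Nab1 at 0.0733 and 5.52 CPM. Tead1, an effector of Hippo signalling, stood at 216 and 186 CPM, with both plates over those of Ngfr/L1cam cells at 170.1 and 118 CPM and of Cdkn1c-high cells at 97.1 and 141 CPM. Of the 10 factors 4 were under and 3 over the Ngfr/L1cam level (median -0.11), and 5 were under and 4 over the Cdkn1c-high level (median -0.54). At an unadjusted p under 0.05 there were 1 and 5.

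Myelin genes summed in marker-low cells to a fraction of the level in Ncmap cells. Mbp, which encodes myelin basic protein, stood at 1713 and 1969 CPM against 2556 and 2815 CPM, 1225 and 2506 CPM and 8156 and 7925 CPM in Ngfr/L1cam, Cdkn1c-high and Ncmap cells. For Mbp the marker-low plates lay under both Ngfr/L1cam plates, between the Cdkn1c-high plates and far under the Ncmap plates. Pmp22, a tetraspan protein of compact myelin, stood at 2315 and 2573 CPM and 11463 and 11856 CPM in marker-low and Ncmap cells. Prx, which encodes the scaffold periaxin, stood at 325 and 371 CPM, over both Ngfr/L1cam plates at 227 and 269 CPM and under both Cdkn1c-high plates at 394 and 710.3 CPM. Cldn19, a claudin of the myelin margin, stood at 128 and 119 CPM, over the Ngfr/L1cam plates at 70.2 and 38.7 CPM and under the Cdkn1c-high plates at 247 and 133 CPM (unadjusted p = 0.0191 and 0.217 by edgeR). The 12 genes summed to 7118 and 7826 CPM in marker-low cells, 7647 and 8446 CPM in Ngfr/L1cam cells, 5185 and 9001 CPM in Cdkn1c-high cells and 27786 and 27648 CPM in Ncmap cells. Against Ngfr/L1cam cells 2 were under and 5 over (median 0.35), and against Cdkn1c-high cells 5 were under and 1 over (median 0.01), with 1 and 3 at an unadjusted p under 0.05.

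Scn7a and Apoe, of the genes kept up in nonmyelinating SCs, lay on each plate between the Ngfr/L1cam and the Cdkn1c-high cells, and no gene of this list passed the test. Scn7a, a sodium channel gene of Remak SCs, stood at 87.6 and 60.8 CPM in marker-low cells and was read in 33 of the 98. Its plates were at 202 and 152 CPM in Ngfr/L1cam cells and 12.1 and 20.4 CPM in Cdkn1c-high cells, with no overlap between the 3 classes. Apoe, a lipid carrier, stood at 3354 and 4710.4 CPM against 4193 and 5839 CPM in Ngfr/L1cam cells and 2063 and 2669.7 CPM in Cdkn1c-high cells, with a log2 difference of 0.81 (SE 0.20) from Cdkn1c-high cells (unadjusted p = 0.00142 by edgeR). Gfap had no read in any of these classes. Of the 8 genes 4 were under and 0 over the Ngfr/L1cam level (median -0.25), and 0 were under and 3 over the Cdkn1c-high level (median 0.89), with 0 and 2 at an unadjusted p under 0.05.

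For several genes induced when tissue is dissociated, marker-low cells lay between the Ngfr/L1cam and the Cdkn1c-high cells, though none passed the test. Fos, an immediate early transcription factor, stood at 4177 and 4361 CPM in marker-low cells, 6060.1 and 6475 CPM in Ngfr/L1cam cells and 2906 and 2854 CPM in Cdkn1c-high cells. Atf3, a stress-induced factor, stood at 301 and 358 CPM, 655 and 665 CPM and 33.5 and 48.5 CPM in the same order, and was read in 32.1% and 35.6%, 54.0% and 53.8%, and 9.30% and 11.3% of the cells. Egr1, another immediate early factor, stood at 599.9 and 718 CPM, 921 and 1075 CPM and 259 and 530.2 CPM. For Fos, Atf3 and Egr1 the marker-low plates lay under both Ngfr/L1cam plates and over both Cdkn1c-high plates. Dusp1, a phosphatase of the immediate early set, stood at 132 and 238 CPM against 414 and 544 CPM in Ngfr/L1cam cells and 120.4 and 199.7 CPM in Cdkn1c-high cells.

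The sum of the 12 dissociation genes had the same order, with Fos as most of the marker-low sum. On both plates 9 of the 12 lay between Ngfr/L1cam and Cdkn1c-high cells, against 10.2% of all genes tested. The list summed to 6155 and 6858 CPM in marker-low cells, 9440.0 and 10724 CPM in Ngfr/L1cam cells, 3817 and 4407 CPM in Cdkn1c-high cells and 2400.2 and 2612 CPM in Ncmap cells. Against Ngfr/L1cam cells 11 of 12 were under and 0 over, against a background of 28.0% and 19.8% of all genes, with a median log2 difference of -0.77 (-1.13 to -0.57 over 20 alternatives). Against Cdkn1c-high cells 0 were under and 10 over, against 23.8% and 21.6% of all genes, with a median of 0.74 (0.56 to 1.09). Jun is also counted in the immature list. Of the 12 genes 2 and 4 had an unadjusted p under 0.05. The lowest were Dusp1 against Ngfr/L1cam cells, with a log2 difference of -1.31 (SE 0.37) (unadjusted p = 0.00347 by edgeR), and Fos against Cdkn1c-high cells, with 0.60 (SE 0.19) (unadjusted p = 0.00618 by edgeR). Whether these levels arose in the nerve or during dissociation cannot be told apart, since every cell was dissociated.

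**Figure D5:**
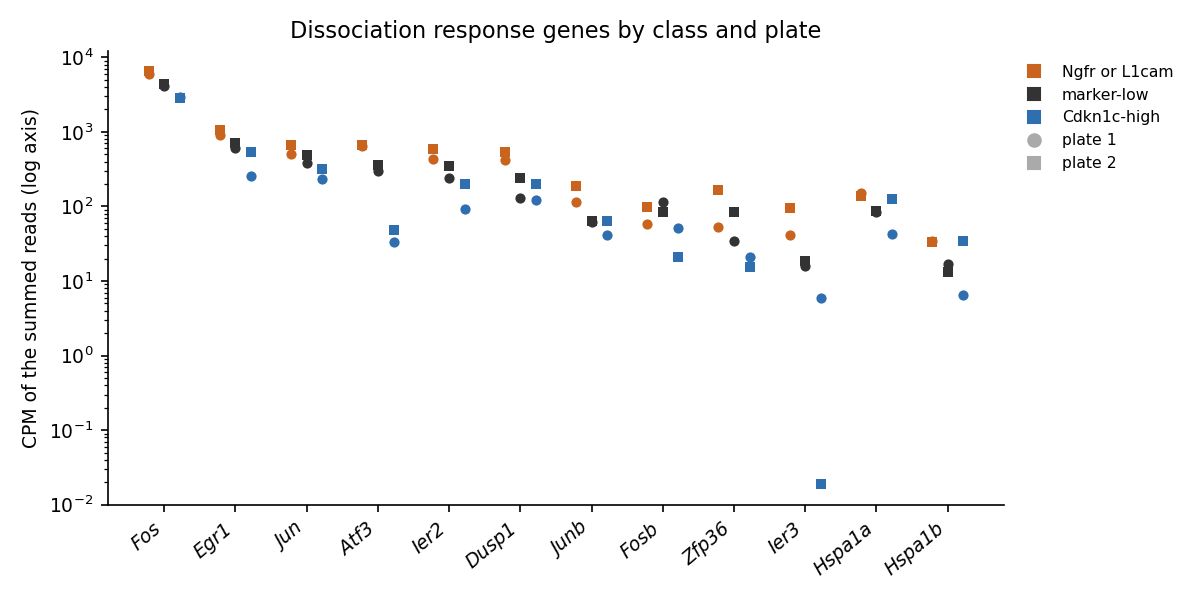
CPM of the summed reads (log y axis) of 12 dissociation response genes in Ngfr/L1cam, marker-low and Cdkn1c-high cells, with a circle for plate 1 and a square for plate 2. Marker-low cells lie between the other classes for Fos (4177 and 4361 CPM), Atf3 (301 and 358 CPM) and Egr1 (599.9 and 718 CPM), while Hspa1a and Hspa1b do not keep this order on plate 2.

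Few reads of proliferation genes were left once Mki67 and Top2a had been limited. The 10 genes of this list, other than these, summed to 84.4 and 94.8 CPM in marker-low cells against 227 and 154 CPM in the other 294. Ccnb2, a mitotic cyclin, stood at 0.383 and 5.73 CPM, with reads in 2 cells, against 107 and 58.3 CPM (unadjusted p = 0.000998 by edgeR). Nusap1 and Ccnb1, of the spindle and of mitotic entry, had no read in any marker-low cell. Ccna2, the S and G2 phase cyclin, was read in 21 cells and stood at 13.9 and 48.2 CPM against 8.47 and 19.02 CPM. Against the other 294 cells 5 of the 10 were under and 2 over (median -1.41), with 4 at an unadjusted p under 0.05. The rule limited genes of the same process, since cells with much Mki67 or Top2a were removed from both classes.

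No replication gene passed the test, and the sign of their median difference varied with the class compared. Pcna, the polymerase clamp, stood at 202 and 188 CPM, 203 and 171 CPM and 183 and 222 CPM in marker-low, Ngfr/L1cam and Cdkn1c-high cells. Mcm7, a subunit of the replicative helicase, stood at 5.76 and 17.8 CPM against 131 and 25.3 CPM in Ngfr/L1cam cells and 27.8 and 28.8 CPM in Cdkn1c-high cells. The 12 genes summed to 305 and 455 CPM against 377 and 345 CPM in the other 294 cells, where 2 were under, 2 over and 1 had an unadjusted p under 0.05 (median log2 difference 0.21). Against Ngfr/L1cam cells 5 were under and 2 over (median -0.18). In Cdkn1c-high cells the list summed to 281 and 327 CPM. Against these cells 1 was under and 3 over, where 23.8% of all genes were under and 21.6% over. The median was 1.31 and stayed above 0 in all 20 alternatives (0.14 to 3.49), which reuse the same cells and are not independent. Rrm2 and Cdc6 had no read in Cdkn1c-high cells, so their fitted differences depend on the prior count.

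Inhibitors of the cell cycle other than Cdkn1c were also read in marker-low cells. Cdkn1a, which encodes p21, stood at 404 and 479 CPM and was read in 45 of the 98 cells, against 299 and 361 CPM in Ngfr/L1cam cells, 453 and 556 CPM in Cdkn1c-high cells and 1622 and 1813 CPM in Ncmap cells. Its marker-low plates lay over both Ngfr/L1cam plates and far under the Ncmap plates. Cdkn1b, which encodes p27, was read in 89 cells and stood at 28.5 and 33.4 CPM, over both Ngfr/L1cam plates at 18.3 and 23.8 CPM and under both Cdkn1c-high plates at 69.7 and 125 CPM. Btg2, an antiproliferative gene that is also an immediate early gene, stood at 333 and 189 CPM against 358 and 369 CPM in Ngfr/L1cam cells and 115 and 72.7 CPM in Cdkn1c-high cells, with a log2 difference of 1.51 (SE 0.40) from Cdkn1c-high cells (unadjusted p = 0.00247 by edgeR). Cdkn2a had no read. The 13 genes summed to 956 and 936 CPM against 935 and 1024 CPM in Ngfr/L1cam cells and 957 and 1012 CPM in Cdkn1c-high cells, with 1 and 2 at an unadjusted p under 0.05.

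Of the G1 cyclin genes and their partners, Ccnd1, Ccnd2, Cdk4 and Cdk6 had medians over 0 CPM in marker-low cells on both plates. The medians of Ccnd3, Myc and Mycn were 0 CPM on both plates, and E2f1 had no read. Ccnd1, the D cyclin induced by growth factors, stood at 1195 and 1090.0 CPM, 1207 and 1133 CPM and 1058 and 1018 CPM in marker-low, Ngfr/L1cam and Cdkn1c-high cells. Cdk6, a partner of the D cyclins, stood at 1197 and 1822 CPM against 1345 and 1213 CPM in Ngfr/L1cam cells and 1153 and 972 CPM in Cdkn1c-high cells. Ccnd3, another D cyclin, stood at 151 and 90.3 CPM, with both plates over those of Ngfr/L1cam cells at 22.4 and 66.01 CPM (unadjusted p = 0.0302 by edgeR). Of the 8 genes 4 were under and 2 over in each of these comparisons, with 2 and 1 at an unadjusted p under 0.05.

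In the remaining lists no tested gene passed the threshold either. The low-count filter left 3 or 4 of 10 chemokine and cytokine genes in the test, depending on the comparison, and 2 of 8 repair SC genes. Chemokine and cytokine genes summed to 461 and 71.6 CPM, of which Cxcl10, an interferon-induced chemokine, was 456 and 68.05 CPM from 7 cells, and 7 of the 10 genes had no read. The sum was 123 and 70.3 CPM in the other 294 cells, 238 and 153 CPM in Ngfr/L1cam cells and 14.7 and 5.78 CPM in Cdkn1c-high cells, and the highest marker-low cell of plate 1 had 8004 CPM of Cxcl10. Integrated stress response genes summed to 296 and 257 CPM against 287 and 309 CPM in the other 294 cells, with 0 at an unadjusted p under 0.05. Repair SC genes, which SCs turn on after nerve injury, summed to 6.605 and 6.403 CPM against 8.78 and 22.7 CPM, and 6 of the 8 had no read. Neuregulin and laminin receptor genes, which serve axonal contact and radial sorting, summed to 3804 and 3456 CPM against 3705 and 3168 CPM. Among them Erbb2, the partner of Erbb3, stood at 49.9 and 174 CPM against 76.4 and 81.5 CPM and Dag1, which encodes dystroglycan, at 357 and 392 CPM against 363 and 441 CPM, with overlapping plates. Of the 13 mitochondrially encoded genes 3 were under and 3 over the level in the other 294 cells (median log2 difference 0.13), and mt-Cytb, of respiratory complex III, had the lowest unadjusted p, 0.0253 by edgeR, with 21647 and 22043 CPM against 19526 and 17578 CPM.

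With no call among genes read in at least 20% of cells of the higher class at 50 CPM or more, the 3 genes of smallest p in each direction are given as values. Against the other 294 cells these were Psmd14, Nedd4 and Nceh1 on the higher side and Mpp6, Tkt and Fh1 on the lower. Psmd14, a proteasome deubiquitinase, stood at 312 and 365 CPM against 128 and 193 CPM (log2 difference 1.18, SE 0.27, adjusted p = 0.512 by edgeR with Benjamini-Hochberg). Nedd4, a ubiquitin ligase, stood at 994 and 908 CPM against 586 and 515 CPM and Nceh1, a cholesterol ester hydrolase, at 109 and 193 CPM against 33.4 and 57.8 CPM. The lower genes were Tkt, a transketolase, at 94.5 and 93.1 CPM against 233 and 186 CPM, Fh1, fumarate hydratase, at 41.3 and 31.05 CPM against 102 and 107 CPM, and Mpp6, a membrane scaffold, at 49.4 and 49.9 CPM against 112 and 121 CPM. In all 6 the plates did not overlap. All 6 overlap other annotated genes, Mpp6 overlapping Gsdme and Fh1 overlapping Kmo on the opposite strand, and for Fh1 3 cells held 50.9% of the reads of the marker-low cells.

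Among genes within the same limits, the smallest p against Ngfr/L1cam cells was that of Klf6 (chromosome 13, 5861482 to 5870394), a zinc finger transcription factor. It stood at 801 and 839 CPM in marker-low cells and 2341 and 2555 CPM in Ngfr/L1cam cells, with 578 and 572 CPM in Cdkn1c-high cells (log2 difference -1.51, SE 0.28 from Ngfr/L1cam cells, adjusted p = 0.240 by edgeR with Benjamini-Hochberg). Nipal1, a magnesium transporter (chromosome 5, 72647795 to 72671078), stood at 326 and 358 CPM against 105 and 106 CPM and at 467 and 440.3 CPM in Cdkn1c-high cells (log2 difference 1.76, SE 0.33, adjusted p = 0.240 by edgeR with Benjamini-Hochberg). For both genes the plates of marker-low and Ngfr/L1cam cells did not overlap. Hspa12a, a heat shock protein 70 relative, stood at 456 and 465 CPM against 212 and 243 CPM and Gsdme, a gasdermin, at 176 and 198 CPM against 38.5 and 61.9 CPM. Plec, the cytoskeletal linker plectin, stood at 32.3 and 30.8 CPM against 123 and 147 CPM, and Fh1 came again at 115 and 118 CPM in Ngfr/L1cam cells. Reads of Mpp6 and Gsdme could not be assigned by strand, and Hspa12a and Plec also overlap other annotated genes.

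Against Cdkn1c-high cells the genes were Abca8b, Thbd and Sostdc1 on the higher side and Itih5, Serpine2 and Ado on the lower. Abca8b, an ATP-binding cassette transporter (chromosome 11, 109932190 to 109995845), stood at 194 and 347 CPM against 54.1 and 40.7 CPM (log2 difference 2.54, SE 0.49, adjusted p = 0.310 by edgeR with Benjamini-Hochberg) and at 167 and 140.4 CPM in Ngfr/L1cam cells, and it overlaps Gm11697 on the opposite strand. Thbd, which encodes thrombomodulin (chromosome 2, 148404466 to 148408188), stood at 227 and 304 CPM against 30.4 and 50.6 CPM (log2 difference 2.75, SE 0.55, adjusted p = 0.339 by edgeR with Benjamini-Hochberg). Sostdc1, a secreted BMP and Wnt antagonist, was read in 96.2% and 95.6% of marker-low cells and stood at 5473 and 6913 CPM against 3828 and 3339.5 CPM. On the lower side were Itih5, a matrix protein, at 454 and 345 CPM against 1347 and 971 CPM, Serpine2, a serine protease inhibitor, at 790.0 and 763 CPM against 1405 and 2135 CPM, and Ado, a thiol dioxygenase, at 39.1 and 74.5 CPM against 179.7 and 341 CPM. In each of these the marker-low plates lay wholly on 1 side of the Cdkn1c-high plates. For Itih5 and Serpine2 the Ngfr/L1cam cells, at 404 and 237 CPM and 584 and 566 CPM, lay under the marker-low level of the same plate.

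The marker-low cells also varied among themselves, as did the other 294 cells. Of 2325 genes read in 20 to 80% of the cells on each plate with a mean of at least 50 CPM, Ccn1, a secreted matrix protein induced by YAP signalling, had the widest spread of log2(CPM + 1) at 50000 reads, with an SD of 5.14 on plate 1 and 5.13 on plate 2. The median SD over those genes was 3.78, and in the other 294 cells the SD of Ccn1 was 5.17 and 5.58. Ccn1 was read in 64.2% and 75.6% of marker-low cells, and its level was 1234 and 1927 CPM, against 2781 and 4281 CPM in Ngfr/L1cam cells and 518 and 929 CPM in Cdkn1c-high cells. The next 7 genes were Tmem176b, 2010111I01Rik, Mdh1, Pdcd6, Psmb5, Rab38 and Acaa2, with mean SDs between 4.70 and 4.81, each read in 49.1 to 69.8% of the cells. These include a malate dehydrogenase, a proteasome subunit and a mitochondrial thiolase. Their SDs by plate ran from 4.55 to 4.97 in marker-low cells and from 4.27 to 4.64 in the other 294. The genes were chosen for their spread in marker-low cells. On this scale the SD rests partly on the split between cells with and without a read, whose part was not tested.

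Single cells combined genes of different classes. Atf3 and Pou3f1 were both read in 19 of the 98 cells, Atf3 alone in 11, Pou3f1 alone in 46 and neither in 22. Pou3f1 and Egr2 were both read in 29 cells, Pou3f1 alone in 36, Egr2 alone in 7 and neither in 26. Most cells with Egr2 also had Pou3f1, but Pou3f1 was read in most of the 98 cells, and a link between these genes was not tested. Atf3 and Scn7a were both read in 11 cells, Atf3 alone in 19, Scn7a alone in 14 and neither in 54, and Cdkn1a and Egr2 in 19, 24, 17 and 38 cells in the same order. These joint counts are at 50000 reads per cell and depend on the number of genes detected in a cell, whose part was not tested.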

How the data were processed

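Reads of single SCs were mapped by the authors with STAR and counted per gene with featureCounts. The submitters' processing notes name bcl2fastq, STAR 2.6.1c and GRCm38.p5, while the methods name an earlier STAR version for these plates and a human assembly. The gene IDs are mouse IDs. The deposited values are raw counts per gene and cell, not normalised. Strand use in counting is not given in the sources used here, so overlapping genes are uncertain. Symbols and positions came from GENCODE M21 (25587 of 25700 IDs matched). Other wells were not analysed here.

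The 98 cells and all gene lists were chosen with earlier results of these data known. Wells with at least 1500 genes were kept, CPM was computed from each cell's total, and reads were summed per class and plate. Median depth of the classes compared was 775721 to 1005800 reads per cell. The 6 genes of the rule and 3 genes overlapping them were left out of the tests. The main test was edgeR 4.0.16 in R 4.3.3 (quasi-likelihood, TMM, low-count filter) with all classes in the model and Benjamini-Hochberg adjustment. Alternatives included DESeq2 1.42.0, limma 3.58.1 on mean log2(CPM + 1) with a pseudocount of 1 CPM, plate as a block, thinning to 50000 reads and other limits. Python 3.11.15 with numpy 2.4.6, pandas 2.3.3 and scipy 1.17.1 did the rest. Of the tests, the main edgeR fit against the other 294 cells was also run on simulated sums. Beside the listed genes, named genes were the 8 of largest change per direction among those called, with at least 50 CPM and a read in 20% of cells of the higher class on each plate, or the 3 of smallest p where fewer than 3 passed, and the 8 of largest spread. Same-numbered sums came from the same mice. Their deviations from the class means correlated across 3327 genes with r of 0.115, 0.167 and 0.100 between marker-low cells and the Ngfr/L1cam, Cdkn1c-high and double classes, and 0.207 with the other 294 cells together. Values of some listed genes are not reported here.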

Additional observations from a re-analysis of the deposited data

How the results depend on the processing

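The count of 7 genes against the other 294 cells depended on the setting. It was 2 with plate as a replicate block, 0 from the sums of the compared classes alone, 109 without a filter on low counts, 389 with DESeq2 and 0 with limma. It was 0 after thinning to 50000 reads, with cells kept or chosen again, 3 with limits of 50 CPM for Ngfr and L1cam, 4 among cells with Sox10 or Erbb3, 2 without cells with 3 proliferation genes (added after seeing the data), 4 in cells of middle gene number, and 16 to 37 when any sum was left out. Against Ngfr/L1cam cells the count of 0 became 57 without the filter, 417 with DESeq2, 2 with limma, 1 after thinning, 1 with a Cdkn1c limit of 400 CPM, 2 without cells with 3 proliferation genes, 1 in cells of middle gene number and 0 to 2 with a sum left out. Against Cdkn1c-high cells it became 66, 596, 2, 1, 1, 1 and 4 in the same order, and 0 to 5 with a sum left out. A lone sum was taken to vary like the other classes. The block changed the count in no other comparison.

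The mean share of 25.5% was 18.4% with no read of Ngfr or L1cam allowed and 33.2% with limits of 50 CPM for these genes. The difference of -227 genes per cell was -343 and -86.2 with minimums of 1000 and 2500 genes, -260 and -208 with Cdkn1c limits of 100 and 400 CPM, -338 and -268 with no read and 50 CPM for Ngfr and L1cam, -255 among cells with Sox10 or Erbb3, -232 after thinning and -339 with cells chosen again. Direction reversed for Cenpe with a minimum of 1000 genes (log2 difference 1.44) and for Cdca3 after thinning with cells chosen again (0.87). The cause was not tested. Of the other values for single genes, 407 kept direction and side of the threshold, 60 were no longer called and 31 became called. With 2 plates, differences smaller than the spread between plates could not be detected at this depth.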
